A study of Mus musculus with 2 samples.

Results

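In the embryonic mouse hindbrain, 10 loci annotated as microRNA genes were read from the strand opposite to their annotation. They carry the gene names Gm24321, Gm25927, Gm25252, Gm24083, Gm25301, Gm25750, Mir299b, Mir497b, Mir142b and Gm24111. On their other strand lie the microRNA genes Mir409, Mirlet7e, Mir376a, Mir191, Mir378a, Mir380, Mir299a, Mir497, Mir142 and Mirlet7f-1, none of which has a row of its own in the count tables. These 10 rows of 1973 were chosen by name from measured values, namely their counts on the opposite strand set against their counts on the annotated strand. Their levels and strand shares are therefore a description with no test. The one test given below compares the libraries with each other.

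A microRNA is cut by Drosha and Dicer from a hairpin, and its mature strand guides an Argonaute protein to messenger RNAs that pair with the seed, the bases near its 5′ end. The precursor of a hairpin is folded on itself, so the DNA strand opposite to it can also be written as a hairpin, and some loci are annotated with a microRNA on each strand. Several of the microRNAs described here are well known: let-7 promotes the move of progenitors to differentiation and is held down by Lin28, mir-142 is a marker of blood cells, and the chromosome 12 microRNAs belong to the imprinted Dlk1-Dio3 domain, whose noncoding RNAs are read from the maternal chromosome and are active in brain.

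Short RNA was sequenced from hindbrain of healthy B6NCrl mouse embryos at embryonic day 13.5, with both sexes mixed. The labels name no transgene, mutation or treatment. The 2 libraries form 1 group and are called replicate 2 and replicate 1 after their biological replicate numbers. They share a donor identifier and have separate biosample identifiers, so part of their spread may be technical and not between animals. Replicate 2 held 4595744 counts in its gene rows and replicate 1 held 3064180, a depth ratio of 1.5. Levels are given as CPM, counts per 1000000 counts on either strand of all gene rows of that library. Where no count was seen, as many as 3 could have been missed, a limit of 0.653 CPM for replicate 2 and of 0.979 CPM for replicate 1. A read spans a whole mature microRNA, so counts were not divided by length.

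The mature sequences are from RefSeq on GRCm38.p6, written 5′ to 3′ with the seed, bases 2 to 8, in capitals. RefSeq entries were matched by gene name for 9 of the 10 microRNAs on the read strand and for 3 of the 10 annotated rows. The count tables give 1 value per hairpin and strand, so which arm of a hairpin was read is not given. The first set shows both arms of the microRNAs opposite the 3 rows with most reads, Mir409 at chr12:109743158-109743236 (+), Mirlet7e at chr17:17830352-17830444 (+) and Mir376a at chr12:109723781-109723848 (+).
miR-409-5p: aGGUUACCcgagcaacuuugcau
miR-409-3p: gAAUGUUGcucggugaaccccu
let-7e-5p: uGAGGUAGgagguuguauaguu
let-7e-3p: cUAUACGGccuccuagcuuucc
miR-376a-5p: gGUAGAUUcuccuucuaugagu
miR-376a-3p: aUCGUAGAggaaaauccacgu

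The second set shows members of larger seed families. The seed of let-7e-5p and let-7f-5p is the same and is shared by 10 other mature microRNAs for each of them, the rest of the let-7 family and miR-98-5p among these. The seed of miR-497a-5p is shared by 9 others, including miR-15a-5p, miR-16-5p, miR-195a-5p and miR-322-5p, the family known for holding back the cell cycle.
let-7f-5p: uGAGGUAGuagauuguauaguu
miR-497a-5p: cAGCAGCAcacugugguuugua

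The third set shows the 3 loci where RefSeq has a mature microRNA on both strands. The a forms lie on the read strand and the b forms are those of the annotated rows.
miR-299a-5p: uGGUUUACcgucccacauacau
miR-299b-5p: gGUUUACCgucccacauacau
miR-299a-3p: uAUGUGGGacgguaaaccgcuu
miR-299b-3p: uAUGUGGGacgguaaacc
miR-497a-3p: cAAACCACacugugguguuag
miR-497b: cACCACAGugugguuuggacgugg
miR-142a-3p: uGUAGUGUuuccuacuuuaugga
miR-142b: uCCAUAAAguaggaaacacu
The seeds of miR-299a-3p and miR-299b-3p are the same, while the 5p seeds of that locus are shifted by a base. The seeds of miR-142b and miR-142a-3p differ, and so do those of miR-497b and miR-497a-3p.

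The Mir299a hairpin is close to the reverse complement of itself, which the hairpins below show with their 21-nt common stretch in capitals. The stretch of miR-299a-5p found on the reverse strand of its own hairpin was 21 nt of 22, and that of miR-299a-3p was 18 nt of 22. For the other 8 microRNAs with a sequence the longest such stretch ran between 5 and 14 nt. The Mir409 hairpin, with miR-409-3p in capitals, and the GENCODE transcript of Gm24321, with the 22 nt opposite miR-409-3p in capitals, show how a row and its read strand relate.
Mir299a: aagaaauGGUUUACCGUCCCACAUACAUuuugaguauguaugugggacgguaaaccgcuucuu
Mir299b: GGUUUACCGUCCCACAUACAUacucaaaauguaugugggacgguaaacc
Mir409: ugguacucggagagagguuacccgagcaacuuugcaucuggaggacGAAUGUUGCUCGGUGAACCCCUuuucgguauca
Gm24321: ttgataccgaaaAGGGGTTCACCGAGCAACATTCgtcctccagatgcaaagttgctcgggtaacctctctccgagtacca

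Nearly all opposite-strand counts in the gene rows of the hindbrain libraries came from these 10 rows, which were chosen by such counts. They held 86986 opposite-strand counts in replicate 2 and 57301 in replicate 1, or 99.4% ± 0.0373 of all opposite-strand counts (SD, n = 2), and 1.88% ± 0.0161 of all gene counts. Their opposite-strand levels summed to 18928 CPM in replicate 2 against 18700 CPM in replicate 1, a mean of 18814 ± 161 CPM. Their annotated strands held 13 counts in replicate 2 and 6 in replicate 1. The other 1963 rows together had 514 opposite-strand counts in replicate 2 and 308 in replicate 1, which is 0.0114% of their counts in replicate 2 (exact 95% binomial interval 0.0104 to 0.0124%) and 0.0102% in replicate 1 (0.00913 to 0.0115%). Intervals and limits cover counting error only, since PCR copies are not independent molecules.

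Among the 367 rows with at least 10 either-strand counts in both libraries, 11 had more opposite-strand than annotated-strand counts in both, 3.0% of them, and the 10 loci are among these by choice. Of the 10 rows, 7 had 0 annotated-strand counts in both libraries. The other 3 were Mir299b, Mir497b and Gm24111. Mir299b and Gm24111 had such counts in both libraries, Mir497b in replicate 2 alone.

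**Figure D1:**
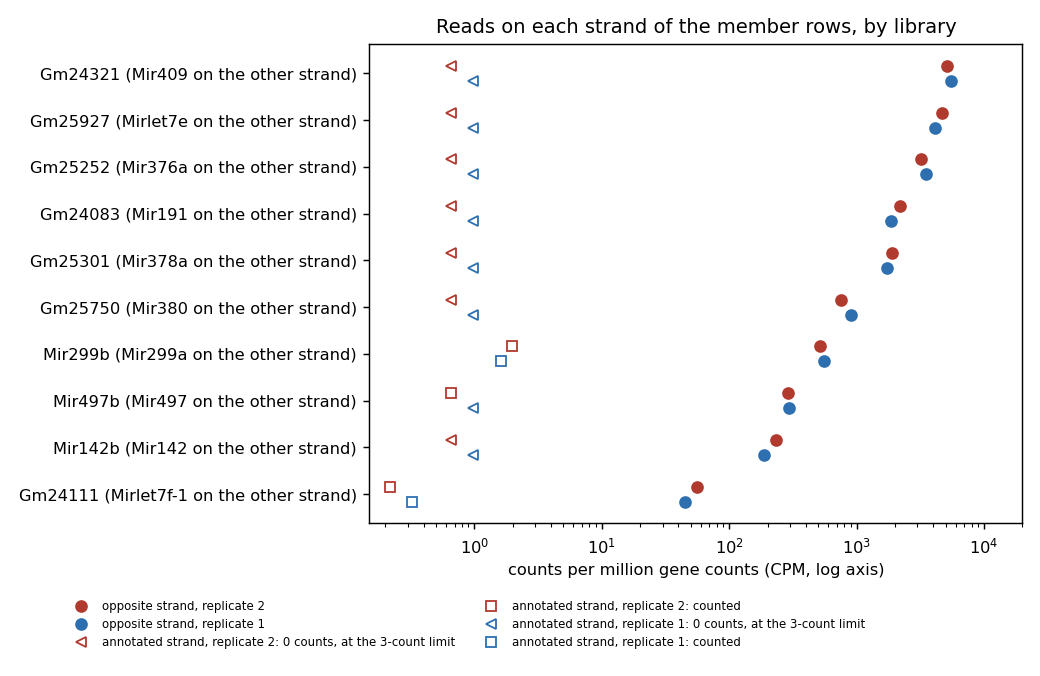
CPM on each strand of the 10 rows, by library (log axis). Filled circles are the opposite strand in replicate 2 (red) and replicate 1 (blue), squares are annotated-strand counts above 0, and triangles stand at the 3-count limit where the annotated strand had 0 counts. The opposite-strand levels run from 5318 CPM on average in Gm24321 to 50.5 CPM in Gm24111, and the annotated strand stays under 2 CPM throughout.

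The microRNAs of the chromosome 12 domain took 4 of the 10 rows, with 4 different levels. Gm24321, the row opposite Mir409, had 23388 opposite-strand counts in replicate 2 and 16995 in replicate 1, or 5089 CPM and 5546 CPM, a mean of 5318 ± 323 CPM (SD, n = 2). It had the highest opposite-strand level and stood at place 35 of all 1973 rows by either-strand level. With 0 annotated-strand counts, the opposite strand was at least 7796-fold higher than the annotated strand in replicate 2 and at least 5665-fold higher in replicate 1, against a limit of 3 counts per library.

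Gm25252, opposite Mir376a, a microRNA known to be edited from adenosine to inosine in brain, had 14772 opposite-strand counts in replicate 2 and 10727 in replicate 1, or 3214 CPM and 3501 CPM. Its mean was 3358 ± 203 CPM at place 55. Gm25750, opposite Mir380, which is known from neuroblastoma and stem cells as a repressor of p53, had 3457 opposite-strand counts in replicate 2 and 2780 in replicate 1, or 752 CPM and 907 CPM, a mean of 830 ± 109.6 CPM. Both rows had 0 annotated-strand counts in both libraries. In these 3 rows replicate 2 was lower than replicate 1 in CPM.

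Mir299b, opposite Mir299a, was the row with most annotated-strand counts. It had 2386 opposite-strand and 9 annotated-strand counts in replicate 2, and 1700 opposite-strand and 5 annotated-strand counts in replicate 1. The opposite strand thus took 99.6% of the reads in replicate 2 (exact 95% binomial interval 99.3 to 99.8%) and 99.7% in replicate 1 (99.3 to 99.9%), intervals that overlap. Its opposite-strand level was 519 CPM in replicate 2 against 555 CPM in replicate 1, a mean of 537 ± 25.2 CPM. At this locus the mature sequences of both strands are almost the same letters, as shown above, and whether that plays a part in the annotated-strand counts was not tested.

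The let-7 family took a pair of rows, at place 2 and at the last place of the 10 by mean level. Gm25927, opposite Mirlet7e, had 21655 opposite-strand counts in replicate 2 and 12522 in replicate 1, or 4712 CPM and 4087 CPM, a mean of 4399 ± 442 CPM at place 40. Its annotated strand had 0 counts in both libraries, so the opposite strand was at least 7218-fold higher in replicate 2 and at least 4174-fold higher in replicate 1. Gm24111, opposite Mirlet7f-1, was the lowest of the 10. It had 256 opposite-strand and 1 annotated-strand counts in replicate 2, and 139 and 1 in replicate 1, or 55.7 CPM and 45.4 CPM on the opposite strand, a mean of 50.5 ± 7.31 CPM at place 254.

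Reads that align to several places are in no gene row, and they were 34.5% of the listed reads in replicate 2 and 33.9% in replicate 1. Among the 9 microRNAs with a sequence, set against 1005 hairpins, Mirlet7f-1 was the one with a mature form found whole in a hairpin of another locus, let-7f-5p in Mirlet7f-2. The level of Mirlet7f-1 is for this reason uncertain. For the other 8 no mature form was found whole in a hairpin elsewhere in that table. Of these, Mir299a comes close, as miR-299a-5p shares 21 of its 22 nt with the Mir299b hairpin. Whether shorter reads of miR-299a-5p were left out as multimapping was not tested, so the level of Mir299a may be uncertain too.

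The other 4 rows lay opposite microRNAs of other kinds. Gm24083, opposite Mir191, which is paired with Mir425 in 1 cluster and is widely expressed, had 9989 opposite-strand counts in replicate 2 and 5714 in replicate 1, or 2174 CPM and 1865 CPM, a mean of 2019 ± 218 CPM. Gm25301, opposite Mir378a, which lies in an intron of the transcriptional coactivator gene Ppargc1b and is known from energy metabolism, had 8679 opposite-strand counts in replicate 2 and 5259 in replicate 1, or 1888 CPM and 1716 CPM, a mean of 1802 ± 122 CPM. These neighbours in the order overlapped in their ranges, since the lowest library of Gm24083 was below the highest of Gm25301.

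Mir497b, opposite Mir497 of the mir-15/16 family, had 1337 opposite-strand and 3 annotated-strand counts in replicate 2, and 895 and 0 in replicate 1. Its opposite-strand level was 291 CPM in replicate 2 against 292 CPM in replicate 1, the closest pair of libraries among the 10, with a coefficient of variation of 0.282%. Mir142b, opposite the blood cell microRNA Mir142, had 1067 opposite-strand counts in replicate 2 and 570 in replicate 1, or 232 CPM and 186 CPM, a mean of 209 ± 32.6 CPM, with 0 annotated-strand counts in both. Its coefficient of variation of 15.6% was the highest of the 10.

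By mean level the order ran Gm24321, Gm25927, Gm25252, Gm24083, Gm25301, Gm25750, Mir299b, Mir497b, Mir142b and Gm24111. In 8 of the 9 steps the lowest library of the higher row stayed above the highest library of the lower row, and the step between Gm24083 and Gm25301 was the exception. With 2 libraries such a gap is a description of these libraries. The means spanned 105-fold, the 3 highest rows held 69.5% of the summed level and the 5 highest held 89.8%. By either-strand level 2 of the rows were among the 50 highest of all rows and 5 among the 100 highest.

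In 9 of the 10 loci the annotated row covers the whole hairpin on the other strand and is longer than it. The other rows with a microRNA on the other strand had much the same geometry, since 20 of those 22 cover that hairpin whole. The rows are 49 to 125 nt long and the hairpins 61 to 93 nt. Gm24321 at chr12:109743158-109743237 (-) is 1 nt longer than Mir409. Mir497b at chr11:70234692-70234816 (-), the longest row, reaches 16 nt beyond Mir497 on its 5′ side and 25 nt on its 3′ side. Mir299b at chr12:109710645-109710693 (-) is the exception: it covers 49 of the 63 nt of Mir299a, or 77.8%, and Mir299a reaches 7 nt beyond it at each end.

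**Figure D2:**
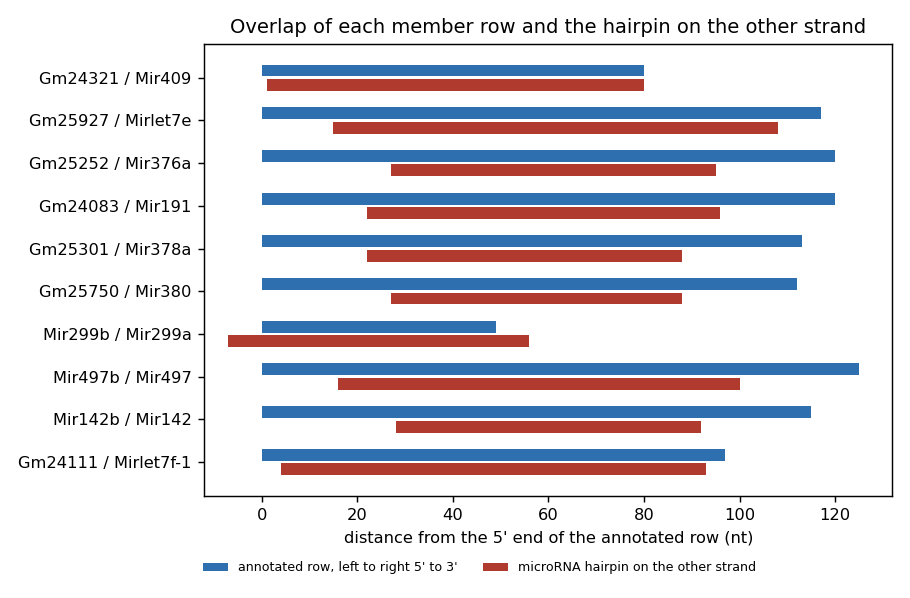
Position of each annotated row (blue) and of the microRNA hairpin on the other strand (red), as distance in nt from the 5′ end of the row. The red bar lies within the blue one in 9 loci, and in the Mir299b locus the hairpin of Mir299a extends 7 nt beyond the row at both ends.

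The other rows lie at chr17:17830343-17830459 (-) for Gm25927, chr12:109723756-109723875 (-) for Gm25252, chr9:108568295-108568414 (-) for Gm24083, chr18:61397813-61397925 (+) for Gm25301, chr12:109711779-109711890 (-) for Gm25750, chr11:87756841-87756955 (-) for Mir142b and chr13:48537825-48537921 (+) for Gm24111, all in GENCODE M21 on GRCm38, which is mm10. The tables list them as ENSMUSG00000093089.1 (Gm24321), ENSMUSG00000092799.1 (Gm25927), ENSMUSG00000093218.1 (Gm25252), ENSMUSG00000092915.1 (Gm24083), ENSMUSG00000093026.1 (Gm25301), ENSMUSG00000093224.1 (Gm25750), ENSMUSG00000093291.1 (Mir299b), ENSMUSG00000070109.2 (Mir497b), ENSMUSG00000065420.2 (Mir142b) and ENSMUSG00000093232.1 (Gm24111). None of the 10 rows lies in another gene on its own strand. On the read strand, Mirlet7e lies in an intron of the protein-coding gene Spaca6 and Mir378a in an intron of Ppargc1b. Mir409 and Mir142 lie in introns of the long noncoding RNAs Mirg and Mir142hg. Mir191 overlaps an exon of the long noncoding RNA 4833445I07Rik and Mirlet7f-1 an exon of 6720427I07Rik, while Mir376a, Mir380, Mir299a and Mir497 are intergenic.

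Most rows with many opposite-strand reads had an annotated microRNA on the other strand, but many rows with such a microRNA had few such reads. Over all 1973 rows, 32 have a microRNA gene of GENCODE M21 on their other strand, and in all 32 that other gene has no row of its own. Of these, 12 had at least 10 opposite-strand counts in both libraries: the 10 loci, Gm25641 and Mir3074-1. The other 20 had at most 6 opposite-strand counts, and 13 of them had 0 in both libraries. Of all 1973 rows, 14 had at least 10 opposite-strand counts in both libraries. The 2 of them without an annotated microRNA on the other strand were Mir203 and Mir708. Mir126a, the endothelial microRNA with Mir126b on its other strand, had 2 opposite-strand against 85281 annotated-strand counts in replicate 2, and 4 against 61756 in replicate 1. Mir219a-2, which is known from oligodendrocytes and lies opposite Mir219b, had 0 opposite-strand against 11985 annotated-strand counts in replicate 2, and 3 against 8430 in replicate 1. Both were chosen after their values were seen, as rows with many annotated-strand reads.

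**Figure D3:**
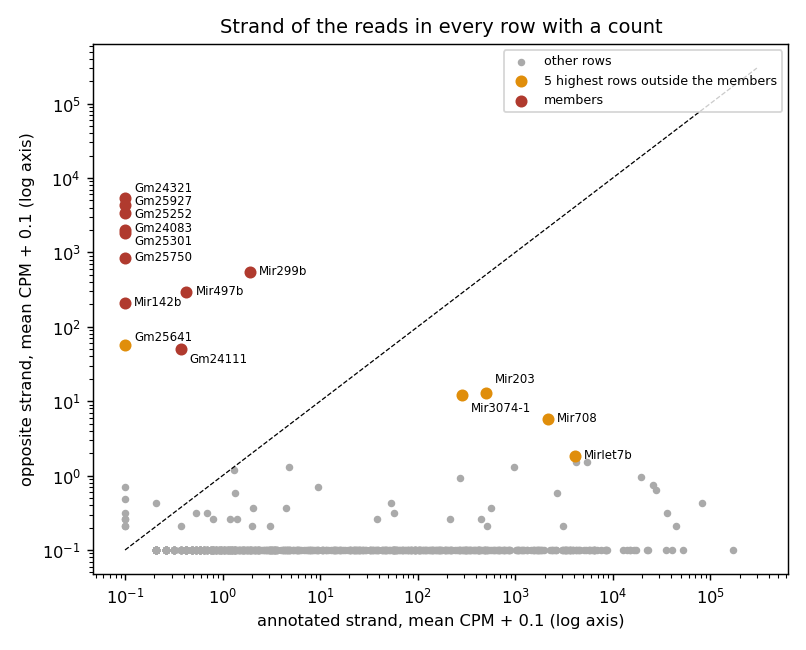
Mean CPM of the 2 libraries on the opposite strand against the annotated strand of every row with a count, each plus 0.1 (log axes), with equality as the dashed line. The 10 loci (red) and Gm25641 (orange) lie far above the line, while Mir203, Mir3074-1, Mir708 and Mirlet7b (orange), the other rows with the highest opposite-strand levels, lie below it.

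Just outside the chosen rows stood Gm25641, which lies opposite Mir9-1 at chr3:88215589-88215696 (-). Mir9-1 makes miR-9, a regulator of neural progenitors. Gm25641 had 283 opposite-strand counts in replicate 2 and 160 in replicate 1, or 61.6 CPM and 52.2 CPM, and 0 annotated-strand counts in both. Its mean of 56.9 ± 6.62 CPM was above the 50.5 CPM of Gm24111, the lowest of the 10, and the libraries' ranges overlapped. The mature forms of Mir9-1 are found whole in the hairpins of Mir9-2 and Mir9-3, so its level is uncertain too.

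After it came rows with a minority of reads on the opposite strand. Mir203, an epithelial microRNA, had 69 opposite-strand against 2281 annotated-strand counts in replicate 2, and 33 against 1561 in replicate 1, a share of 2.94% and 2.07%. Mir3074-1, opposite Mir24-1, had 50 against 1322 counts in replicate 2 and 41 against 869 in replicate 1, a share of 3.64% and 4.51%. Mir708 had 24 against 10131 counts in replicate 2 and 19 against 6395 in replicate 1, and Mirlet7b had 7 against 21687 and 6 against 10487. The lowest of the 10 loci, at 50.5 CPM on the opposite strand, thus compares with 12.9 CPM in Mir203 and 1.74 CPM in Mirlet7b.

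The levels of the 10 loci can be read beside the annotated-strand levels of their neighbours and relatives, given here as a description. The chromosome 12 list of 31 neighbouring genes had 30 with a row and 28 with at least 10 counts in both libraries, and summed to 55832 ± 3899 CPM (SD, n = 2) with a median of 246 CPM per gene. The 4 loci of this domain summed to 10042 ± 661 CPM on the opposite strand, 15.2% of the joint sum. Placed by mean level among the neighbours, Mir409 stood 4th behind Mir487b at 22674 ± 2617 CPM, Mir369 at 7564 ± 576 CPM and Mir382 at 5673 ± 300 CPM. The order of Mir409 and Mir382 differed between the libraries. Mir409 was at 5089 CPM against 5885 CPM for Mir382 in replicate 2, and at 5546 CPM against 5461 CPM in replicate 1. Placed in the same way, each without the other loci, Mir376a stood 5th, Mir380 11th and Mir299a 14th. The order of Mir380 and Mir323 also differed between the libraries, as did that of Mir299a and Mir1193. The domain is thus spread over a wide range of levels, with Mir379 at 1638 ± 6.48 CPM and Mir376c at 414 ± 31.7 CPM. Mir376a, at 8.12 times the level of its relative Mir376c, was read more than the 1 relative with a row.

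Mirlet7e makes a cluster with Mir99b and Mir125a. Its 4399 ± 442 CPM on the opposite strand of Gm25927 stood between Mir99b at 22705 ± 2893 CPM and Mir125a at 3602 ± 91.4 CPM. Among 12 let-7 relatives, of which 10 have a row, Mirlet7e ranked 3rd by mean level. Above it were Mirlet7g at 40698 ± 5678 CPM and Mirlet7i at 27456 ± 2284 CPM. In replicate 2 Mirlet7b was also above Mirlet7e, at 4719 CPM against 4712 CPM. In replicate 1 Mirlet7b was below it, at 3422 CPM against 4087 CPM. Multimapping reads are in no row, so these ranks hold among counted reads only. Mirlet7f-1 ranked last, below its cluster neighbours Mirlet7a-1 at 144 ± 9.17 CPM and Mirlet7d at 3667 ± 827 CPM. The let-7 pair summed to 4450 ± 450 CPM, 5.21% of the joint sum with the relatives.

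Mir191 on the opposite strand of Gm24083 was at 1.91 times the level of its cluster neighbour Mir425, 1055 ± 87.7 CPM. Mir497 was at 1.07 times its neighbour Mir195a, at 271 CPM in replicate 2 against 273 CPM in replicate 1. In the mir-15/16 family, which summed to 13768 ± 380 CPM in 6 genes, Mir497 ranked 5th, behind Mir322 at 8446 ± 349 CPM and Mir15a at 2289 ± 63.5 CPM among others and above Mir195a. The next below it, Mir16-2 at 287 ± 25.5 CPM, had libraries on either side of those of Mir497. Multimapping reads are left out here too, so this sum and rank hold among counted reads only. Among counted reads Mir378a was the one of its relatives at a high level. Mir378b, Mir378c and Mir378d had at most 3.26 CPM on average and none had 10 counts in both libraries. No sequence was matched for Mir378a, so whether reads shared with these relatives were left out as multimapping was not tested.

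Mir142 was above all 5 blood microRNAs with a row. Replicate 2 held 232 CPM and replicate 1 held 186 CPM of it, against 182 CPM and 139 CPM for Mir155, a microRNA of activated lymphocytes and myeloid cells, 1.30 times on average. The myeloid Mir223 was at 144 ± 7.63 CPM, and Mir451a, a microRNA of red cells, was at 56.4 CPM in replicate 2 against 149 CPM in replicate 1. Mir142 made 31.2% of the joint sum. In bulk tissue, fewer blood cells and less RNA per blood cell cannot be told apart. The tissue label was set beside listed markers. Mir10a and Mir10b of the Hox clusters, listed for hindbrain and trunk, had 82461 ± 12037 CPM and 36387 ± 4223 CPM. The neuronal Mir137 had 6089 ± 102 CPM. The 3 Mir124a genes, known as neuronal, averaged between 1.2 and 3.48 CPM in their rows, with multimapping reads left out. Of the Mir9 genes, listed as neuronal too, Mir9-3 averaged 562 CPM and Mir9-2 3.10 CPM, and Mir9-1 has no row. Their hairpins hold the same mature forms, so multimapping reads are left out of these levels too.

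**Figure D4:**
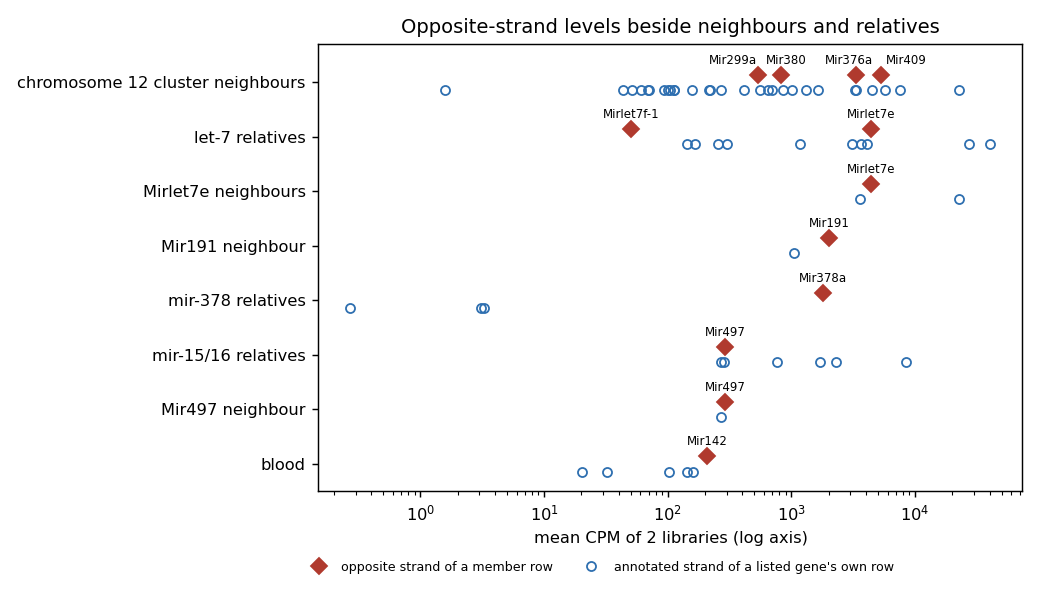
Mean opposite-strand CPM of the microRNAs on the read strand of the loci (diamonds) and annotated-strand CPM of the listed neighbours and relatives (circles), by list, on a log axis. Mir142 lies above the 5 blood genes, Mir378a far above its 3 relatives, and Mirlet7f-1 below all let-7 relatives. Multimapping reads are in none of these values.

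The libraries were compared with each other for each row and strand with at least 10 counts in both, 370 in all, by a two-sided exact binomial test with trimmed-mean (TMM) library sizes and Benjamini-Hochberg adjustment over all 370 at a threshold of 0.05. The test takes counting error as its only error and compares these libraries, not conditions. The spread between the libraries was far above counting error, the chi-square over all row-strands being 39089.8 (369 df), with a common biological coefficient of variation of 0.139 in edgeR. A row that passes therefore differs between these libraries by more than its counting error, which does not show a difference beyond the usual spread of replicates. Of the 370, 45.9% passed, 21.6% higher and 24.3% lower in replicate 2. Of the 10 loci 8 passed, 4 of them higher in replicate 2 and 4 lower. All 10 log2 ratios of replicate 2 over replicate 1 lay within 1 SD of all row-strands, which was 0.38 around a median of -0.00. That SD takes in row-strands with as few as 10 counts, so lying within it says little about rows with many counts. The median absolute log2 ratio was 0.178. By absolute ratio Mir142b held place 89 and Gm25750 place 92 of the 370.

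The 4 loci of the chromosome 12 domain had log2 ratios below 0. Gm25750 was at -0.29 (95% counting interval -0.36 to -0.22), Gm24321 at -0.14 (-0.17 to -0.12), Gm25252 at -0.14 (-0.18 to -0.11) and Mir299b at -0.12 (-0.21 to -0.03). Mir299b passed the exact binomial test with an adjusted p of 0.0271 and did not pass it with library totals in place of TMM sizes, at -0.10 and an adjusted p of 0.0775. Of the 28 neighbours tested in the chromosome 12 list, 21 had a ratio below 0, where 187 of all 370 row-strands did, or 50.5%. Their median was -0.17, against -0.00 over all row-strands.

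Of the 6 loci elsewhere in the genome 1 had a ratio below 0, Mir497 on Mir497b at -0.03 (-0.15 to 0.10). Mirlet7e on Gm25927 was at 0.18 (0.15 to 0.22), Mir191 on Gm24083 at 0.20 (0.15 to 0.25) and Mir378a on Gm25301 at 0.12 (0.07 to 0.17). Mir142 on Mir142b was at 0.30 (0.15 to 0.45) and Mirlet7f-1 on Gm24111 at 0.28 (-0.03 to 0.58). Mir497 and Mirlet7f-1 did not pass the test, which does not show that they were equal in the libraries.

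The ratios of the cluster neighbours are given beside these as values, and differences within a cluster were not tested. In the cluster of Mirlet7e, at 0.18, Mir99b was at -0.28 and Mir125a at 0.03. Beside Mir191, at 0.20, Mir425 was at -0.19. The neighbours of Mirlet7f-1, at 0.28, were Mirlet7d at 0.44 and Mirlet7a-1 at 0.11. Mir195a was at -0.03, as was Mir497. In the blood list Mir155 was at 0.37, Mir223 at 0.09 and Mir451a at -1.43, beside 0.30 for Mir142.

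**Figure D5:**
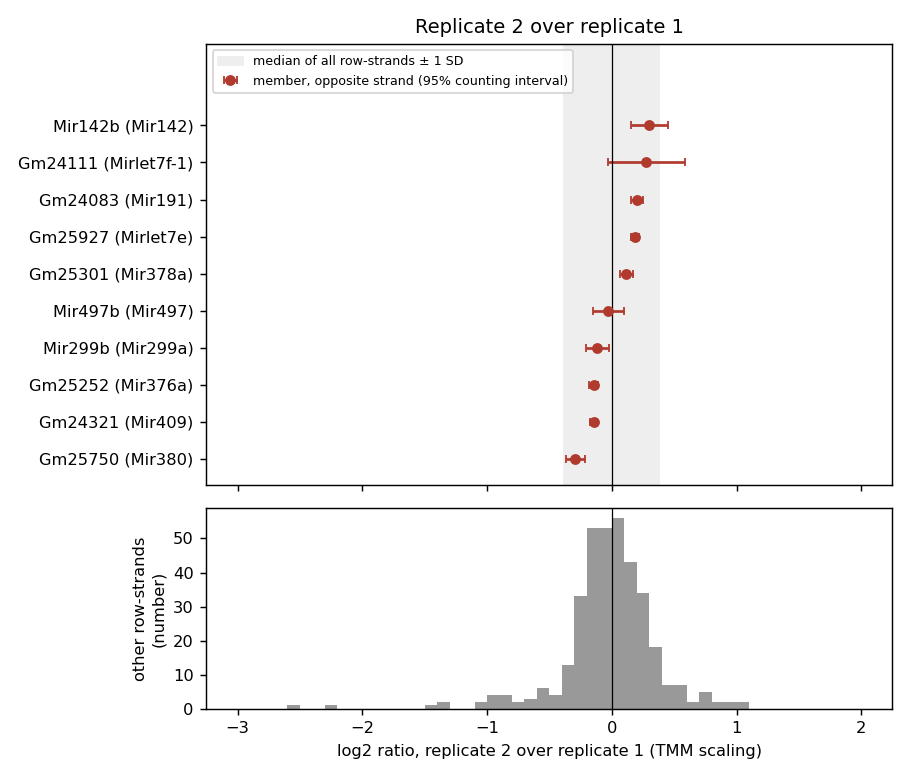
Log2 ratio of replicate 2 over replicate 1 for the 10 loci with 95% counting intervals (top; the band is the median of all row-strands ± 1 SD) and the distribution over the other row-strands (bottom). The 4 chromosome 12 loci lie at -0.29 to -0.12 and the other 6 at -0.03 to 0.30, all within the band.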

How the data were processed

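The authors deposited a table of raw counts of reads per gene for each library, made on mm10 with GENCODE M4 per the deposited README. The sources used here do not name the aligner, the counter or their versions. Of 3 count columns, the first equalled the sum of the others in every gene row. The strand columns are unnamed, so the larger was taken as the annotated strand. The 4 summary rows stayed out of library sizes; multimapping reads made up 34.5% of the listed reads in replicate 2 and 33.9% in replicate 1.

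Names and coordinates came from GENCODE M21, which matched 1894 of 1973 identifiers; the other 79 had at most 2 counts. CPM and exact intervals were computed with Python 3.11.15 and scipy 1.17.1, TMM sizes with edgeR 4.0.16 and alternative size factors with DESeq2 1.42.0. With 1 group, edgeR's quasi-likelihood test could not be fitted. The loci, lists and tests were chosen with earlier results of these data known. Named genes were the loci, their opposite microRNAs, listed neighbours and relatives, the 5 other rows with the highest opposite-strand level and tissue check genes.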

Additional observations from a re-analysis of the deposited data

How the results depend on the processing

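Under other denominators, strand columns, filters, scalings and single libraries 141 values were recomputed, and 138 kept their direction, their side of the threshold or their range. Some of these could not come out otherwise. Each of 2 libraries lies within 1 SD of their mean, so the single-library levels and strand shares always kept their range. For rows with 0 annotated-strand counts, the either-strand level is the opposite-strand level itself. With annotated-strand totals as the denominator the summed opposite-strand level of the 10 loci was 19177 CPM in place of 18814 CPM, and that of Mir497b was 297 CPM. With library totals the Mir299b ratio was -0.10 with an adjusted p of 0.0775. The loci past the exact binomial test were 7 with library totals and 8 otherwise, and the row-strands past it ran from 167 to 176 around 170. Either library alone gave a summed level of 18700 to 18928 CPM. Leaving out a library gave no ratio between libraries. No paired analysis was possible because both libraries belong to 1 group. Depth limits the annotated strand: with 0 counts, up to 0.653 CPM in replicate 2 and 0.979 CPM in replicate 1 cannot be told from none.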
